A study of Homo sapiens with 136 samples.

Results

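AZD0364, an inhibitor of the kinases ERK1 and ERK2, was added to an autophagy inhibitor in 2 human pancreatic ductal adenocarcinoma lines, AsPC-1 and PANC-1. The 8 libraries whose titles name AZD0364 were taken, 4 of the 68 libraries of each line. In each line 2 libraries held AZD0364 with hydroxychloroquine, which makes lysosomes less acid so that engulfed cargo is not digested. The other 2 held AZD0364 with Compound 19, which blocks Vps34, a lipid kinase needed early in autophagosome formation. The controls were the 12 libraries per line of the same autophagy inhibitors alone, 6 of each, and AZD0364 was also set against the other 3 ERK inhibitors, SCH772984, ulixertinib and ravoxertinib, with 4 libraries each per line. Cells were cultured for 24 h and treated for 24 h, then frozen and prepared by PLATE-Seq, a method that barcodes RNA well by well. All cells carried an autophagy inhibitor. Untreated cells, and AZD0364 without an autophagy inhibitor, were not analysed here, so every difference below is what AZD0364 added to autophagy inhibition.

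Each drug was given at a concentration set from cell viability under that drug alone. The concentrations themselves are not in the labels, so the inhibitors are compared at doses chosen for a like viability and not at a matched dose. The code that opens each title holds the line and the letter A or B, read here as 2 plates per line, and AZD0364 had 1 library per autophagy inhibitor and plate, beside 3 alone libraries. Nothing in the labels says that wells were separate cultures, so p-values measure the spread between these wells, which may be technical. Each line stands for 1 tumour, grown without stroma.

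ERK is the last kinase of the RAS, RAF, MEK and ERK cascade, which carries growth signals from the cell surface to the nucleus. Active ERK phosphorylates transcription factors of the ETS family and so raises a short list of output genes, many of which code for proteins that switch the cascade off again, such as the Sprouty proteins and the dual-specificity phosphatases. ERK also stabilises MYC and AP-1 factors such as FOSL1, promotes entry into S phase, and is known to feed into autophagy and lysosomal programmes in this cancer. RNA of the output genes is therefore a usual readout of ERK activity. The RNA is from whole wells, so fewer cells of a type and less RNA per cell cannot be told apart.

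Promoters of 3 genes that the ERK cascade is known to regulate are shown for the motifs they hold. The sequences are from RefSeq on GRCh38.p14 and give the 250 bases before the gene's start, 5′ to 3′ on the gene's strand. They were chosen after the values were seen, as members of the output, ligand and early response groups described below whose windows hold at most 2 annotated exon bases. Capitals mark matches on either strand to the ETS core CCGGAA, to the cyclic AMP response element TGACGTCA, or to the CArG box, which serum response factor binds.
SPRY2, a Sprouty feedback inhibitor, chr13:80341127-80341376, minus strand: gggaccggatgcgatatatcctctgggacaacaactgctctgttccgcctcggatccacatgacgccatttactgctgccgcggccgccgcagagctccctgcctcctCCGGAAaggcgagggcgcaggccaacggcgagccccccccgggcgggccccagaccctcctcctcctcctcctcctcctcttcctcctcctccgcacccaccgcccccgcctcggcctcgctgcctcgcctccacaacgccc
AREG, the EGF receptor ligand amphiregulin, chr4:74444886-74445135, plus strand: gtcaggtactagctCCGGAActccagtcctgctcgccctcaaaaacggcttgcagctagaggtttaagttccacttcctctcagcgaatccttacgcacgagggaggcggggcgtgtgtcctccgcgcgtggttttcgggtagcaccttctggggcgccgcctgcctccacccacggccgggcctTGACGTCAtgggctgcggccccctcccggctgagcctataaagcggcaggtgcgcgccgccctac
EGR1, an early response transcription factor, chr5:138465229-138465478, plus strand: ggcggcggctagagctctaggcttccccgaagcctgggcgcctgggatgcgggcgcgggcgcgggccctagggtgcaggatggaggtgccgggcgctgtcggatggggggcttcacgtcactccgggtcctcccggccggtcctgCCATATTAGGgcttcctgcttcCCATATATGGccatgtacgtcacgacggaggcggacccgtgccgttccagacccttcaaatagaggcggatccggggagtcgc
The SPRY2 window held 1 ETS core, from 142 to 137 bases before the RefSeq start. GENCODE release 29 places the SPRY2 start further downstream, at 80340951, so this distance depends on the annotation. The AREG window held 1 ETS core and 1 cyclic AMP response element, the latter from 65 to 58 bases before the start. The EGR1 window held 2 CArG boxes, from 105 to 96 and from 83 to 74 bases before the start. The ETS core was present in 14.8% of 27305 RefSeq promoters of this length, the cyclic AMP response element in 1.77% and the CArG box in 1.14%. Of genes with a promoter in the table, the ETS core was present in 25.7% of those tested in AsPC-1, in 30.8% of the 907 that were lower with AZD0364 and in 14.3% of the 922 that were higher. In PANC-1 it was present in 25.8% of those tested, in 24.4% of the 270 lower and in 16.1% of the 236 higher. A match is a run of letters and not a bound site.

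Levels below are in CPM, the usual depth-scaled read count, with library sizes adjusted by TMM. Differences are log2 fold changes ± standard error from 1 edgeR quasi-likelihood fit per line over its 68 libraries, with plate as a term. A gene is called at a Benjamini-Hochberg adjusted p under 0.05 over all genes tested. The 8 AZD0364 libraries held 2351336 to 5028861 counts, within the range of the series, 1419228 to 5871860. The 6 markers of carcinoma epithelium, 4 keratins, EPCAM and CDH1, were detected in both lines, and endothelial markers summed to at most 2.02 CPM in any AZD0364 library. In AsPC-1 the share of counts from protein genes of mitochondrial DNA averaged 29.4% with AZD0364 and 27.0% alone, the ribosomal protein share 10.7% and 11.7%, and the share of the 10 most abundant genes 32.6% and 29.2%. Each difference had an exact permutation p of 0.0039, the smallest that permuting within inhibitor and plate can give, and an adjusted p of 0.0104 over the 8 measures of both lines. Their part in the results was not tested.

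In AsPC-1, 2358 of 12761 genes differed between AZD0364 with an autophagy inhibitor and the autophagy inhibitor alone, 1207 higher (9.46% of genes tested) and 1151 lower (9.02%), which is 18.5% in all. Within plate A the count was 1396, and within plate B 887. In PANC-1, 662 of 12627 genes differed, 287 higher (2.27%) and 375 lower (2.97%), which is 5.24%, with 141 within plate A and 230 within plate B. The PANC-1 count fell to 424 without the hydroxychloroquine library of plate A, 394 without that of plate B, and 403 and 425 without the Vps34 inhibitor libraries of plates A and B. The median over all genes tested was -0.03 on the log2 scale in both lines.

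The ERK output genes were lower in both lines. Of those tested, 7 of 9 fell in AsPC-1 and 8 of 8 in PANC-1, and none rose. The medians of the lists were -1.74 and -1.88 on the log2 scale. All 4 AZD0364 libraries lay below all 12 alone libraries for 5 of the 9 genes in AsPC-1, where 3.26% of all genes tested did so, and for 7 of the 8 genes in PANC-1, where 1.48% did so.

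SPRY4 codes for a Sprouty protein that restrains receptor signalling to RAS. In AsPC-1 its level was 8.53 and 13.0 CPM with AZD0364 and hydroxychloroquine and 8.84 and 18.5 CPM with AZD0364 and the Vps34 inhibitor, while the alone libraries had a lowest level of 62.1, a median of 109 and a highest level of 189.9 CPM. The groups did not overlap, and the difference was -3.26 ± 0.21 (adjusted p = 3.2e-19), a level 0.104 times that of the controls. In PANC-1 the same gene had 1.66 and 5.05 CPM with hydroxychloroquine and 2.09 and 3.43 CPM with the Vps34 inhibitor, against 30.1, 42.5 and 61.2 CPM for the lowest, median and highest alone library. Again no AZD0364 library reached the controls, and SPRY4 fell by 3.88 on the log2 scale (SE 0.26, adjusted p = 1.2e-15).

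DUSP6 is the phosphatase that removes the activating phosphates from ERK in the cytoplasm. Its AsPC-1 libraries had 13.3 and 10.4 CPM with hydroxychloroquine and 11.4 and 5.54 CPM with the Vps34 inhibitor, and the alone libraries ran from 46.8 over a median of 70.9 to 90.0 CPM. In PANC-1 the 4 AZD0364 libraries held 0.713, 2.36, 2.98 and 0.791 CPM, and the alone libraries 11.7, 18.4 and 22.8 CPM in the same order of lowest, median and highest. Every AZD0364 library was below every control in each line. The differences were -2.81 ± 0.26 in AsPC-1 (adjusted p = 1.07e-12) and -3.44 ± 0.43 in PANC-1 (adjusted p = 9.5e-08). DUSP4, a nuclear phosphatase of the same family, fell in AsPC-1 (-1.91 ± 0.13) and did not pass the filter on low counts in PANC-1, where its highest level in an AZD0364 library was 0.238 CPM.

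The transcription factors ETV4 and ETV5 belong to the PEA3 group of ETS factors. ETV5 fell in both lines, by 2.47 on the log2 scale in AsPC-1 (SE 0.39) and by 1.75 in PANC-1 (SE 0.22), where its 4 libraries held 5.05 to 11.3 CPM against 22.5 to 39.7 CPM alone. ETV4 had 1.19 to 3.32 CPM with AZD0364 and 1.36 to 8.08 CPM alone in AsPC-1, with overlapping groups, and it was not called there (-1.07 ± 0.50, adjusted p = 0.132). In PANC-1 only 2 ETV4 counts were found over the 4 AZD0364 libraries, against 99 over the 12 alone libraries. That gives a level 15.9 times lower, with an exact interval for counting error from 4.3 to 134 times. ETV4 was called lower in PANC-1 (adjusted p = 0.0019), and within plate A alone it was not (adjusted p = 0.343).

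PHLDA1, an early response gene, had 57.6 to 120.4 CPM with AZD0364 in AsPC-1 and 59.9 to 84.4 CPM in PANC-1, below all controls, which began at 204.6 and 165 CPM. Its differences were -1.74 ± 0.12 and -1.41 ± 0.10. CCND1, which codes for cyclin D1, the partner of CDK4 and CDK6 in G1, fell by 1.15 on the log2 scale in AsPC-1 (SE 0.19) and by 1.06 in PANC-1 (SE 0.18). In AsPC-1 its highest AZD0364 library, at 94.3 CPM, exceeded the lowest control, at 87.5 CPM, while in PANC-1 the highest, 182.6 CPM, stayed below the lowest control, 186 CPM. EPHA2, an ephrin receptor, fell in AsPC-1 (-1.07 ± 0.21, adjusted p = 0.000125). It was also called lower in PANC-1 (-0.91 ± 0.26, adjusted p = 0.0293). Without the PANC-1 Vps34 inhibitor library of plate B EPHA2 stood at -0.71 (adjusted p = 0.244), without the hydroxychloroquine library of plate A at -0.90 (adjusted p = 0.13), and without that of plate B at -0.92 (adjusted p = 0.12).

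SPRY2 was called in PANC-1 and not in AsPC-1. In AsPC-1 it had 3.17, 9.56, 5.37 and 2.49 CPM with AZD0364 and 4.23 to 15.2 CPM alone, and it was not called (-0.74 ± 0.36, adjusted p = 0.159). In PANC-1 it had 0.713 and 0.674 CPM with hydroxychloroquine and 4.77 and 2.64 CPM with the Vps34 inhibitor, against 3.19 to 12.8 CPM alone, so the groups overlapped. The PANC-1 difference was -2.02 ± 0.46 (adjusted p = 0.0035). Without the hydroxychloroquine library of plate B SPRY2 stood at -1.9 (adjusted p = 0.0501), and without the Vps34 inhibitor library of plate B at -1.73 (adjusted p = 0.0531). Within plates A and B it stood at -1.51 and -1.85, with adjusted p of 0.376 and 0.0662.

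**Figure D1:**
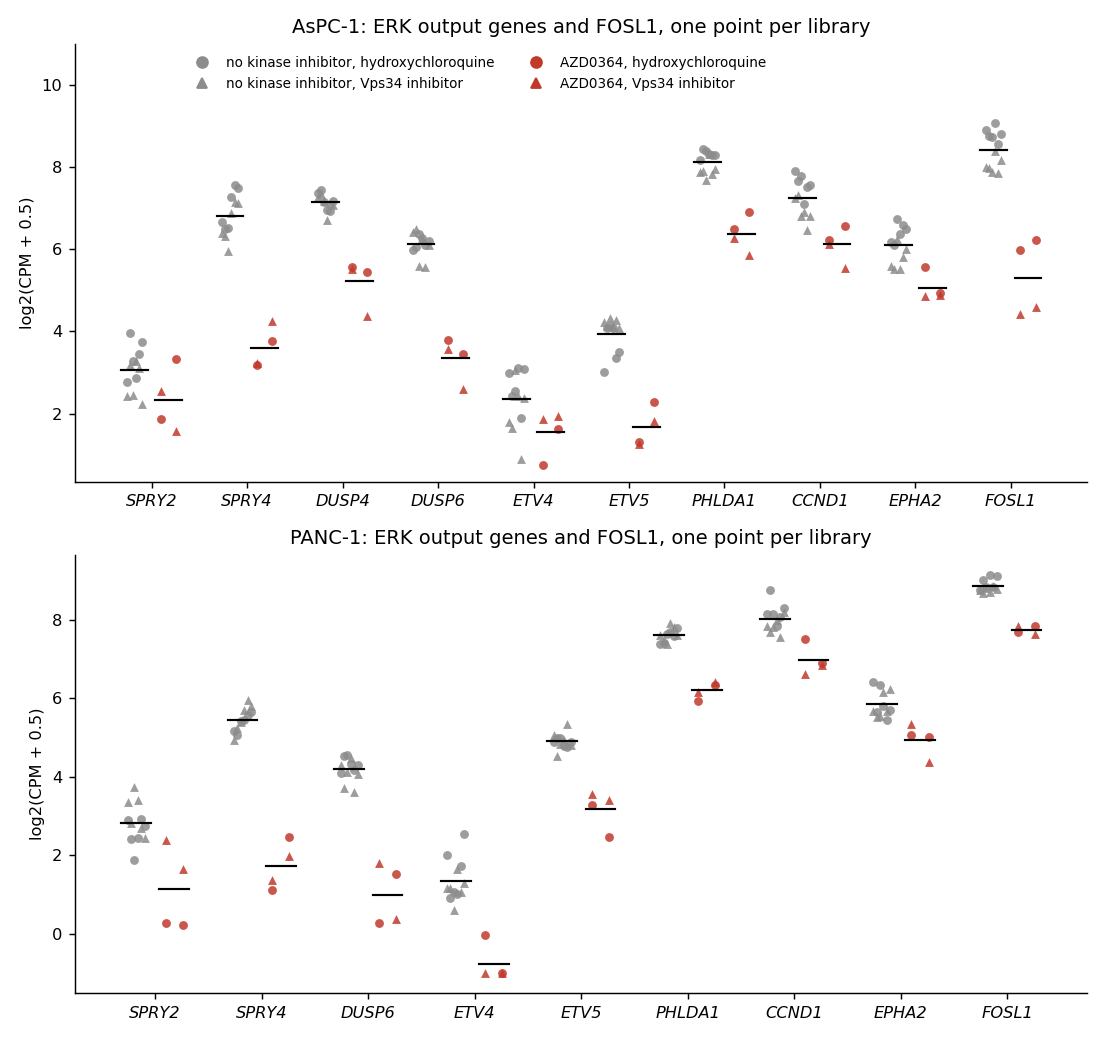
Each point is 1 library, on a log2(CPM + 0.5) axis, for the tested ERK output genes and FOSL1 in AsPC-1 (top) and PANC-1 (bottom); grey points are the 12 libraries of an autophagy inhibitor alone, red points the 4 with AZD0364, circles hydroxychloroquine, triangles the Vps34 inhibitor, and bars the group means. SPRY4, DUSP6 and PHLDA1 are fully separated in both lines. Of the ERK output genes 5 of 9 are separated in AsPC-1, where SPRY2, ETV4 and CCND1 are among those that overlap. In PANC-1 7 of 8 are separated, and SPRY2 overlaps.

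Among 13 other feedback regulators tested in each line, 1 rose and 4 fell in AsPC-1 (median -0.33), where 9.02% of all genes fell. In PANC-1 0 rose and 5 fell (median -0.47), where 2.97% of all genes fell. ERRFI1, which binds and inhibits the EGF receptor, fell by 1.11 on the log2 scale in AsPC-1 (SE 0.15). It was also called lower in PANC-1 (-0.47). In PANC-1 the ERK-specific phosphatase gene DUSP5 had 14.1 to 25.1 CPM with AZD0364 against 27.4 to 89.7 CPM alone (-1.43 ± 0.21). SPRED1, an inhibitor of RAF activation, fell by 1.19 in PANC-1 (SE 0.20) and was called lower in AsPC-1 as well (-0.99). Of the RAS, RAF, MEK and ERK genes of the cascade itself, 2 of 21 rose in AsPC-1 (median -0.03), beside 9.46% of all genes, and 3 of 20 in PANC-1 (median 0.04), beside 2.27%, and none fell. MKNK2, a kinase downstream of ERK, was called higher in both lines (0.41 ± 0.10 and 0.42 ± 0.08). In AsPC-1 it was not called without plate in the fit (adjusted p = 0.0703).

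FOSL1, the AP-1 subunit FRA-1, marked a difference between the lines. In AsPC-1 its level was 62.9 and 73.9 CPM with AZD0364 and hydroxychloroquine, and 20.9 and 23.8 CPM with AZD0364 and the Vps34 inhibitor. The alone libraries ran from 378.8 to 536.7 CPM with hydroxychloroquine and from 231.9 to 338 CPM with the Vps34 inhibitor, so FOSL1 was lower with the Vps34 inhibitor both with and without AZD0364. FOSL1 fell by 3.15 on the log2 scale (SE 0.16, adjusted p = 7.78e-25). In PANC-1 it had 204.2, 226.3, 227.1 and 196.8 CPM against 409.1 to 560.4 CPM alone, again without overlap, and fell by 1.12 (SE 0.10, adjusted p = 1.36e-11). The interaction of line and AZD0364 was 2.03 ± 0.17 for FOSL1 (adjusted p = 5.12e-17), so the fall was smaller in PANC-1.

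EGR1, whose promoter is printed above and which was chosen after its values were seen, had 1.59 and 0.435 CPM with AZD0364 and hydroxychloroquine in AsPC-1 and 0.948 and 0.830 CPM with AZD0364 and the Vps34 inhibitor. Its alone libraries held 18.2 to 34.5 CPM with hydroxychloroquine and 1.53 to 8.81 CPM with the Vps34 inhibitor, so the control ranges under the 2 autophagy inhibitors did not overlap. EGR1 was lower by 3.65 log2 units (SE 0.45, adjusted p = 2.62e-09). In PANC-1 EGR1 was low throughout, 0.264 to 2.68 CPM with AZD0364 and 1.12 to 7.88 CPM alone, and was called lower (-1.61 ± 0.45, adjusted p = 0.0212). Over the immediate early transcription factors, 3 of 24 rose and 8 fell in AsPC-1 (median -0.45), where 9.46% of all genes rose and 9.02% fell, and 0 of 22 rose and 6 fell in PANC-1 (median -0.34), where 2.27% rose and 2.97% fell. FOSL2, another AP-1 subunit, moved the other way in AsPC-1, with 51.2 to 88.2 CPM against 12.03 to 21.9 CPM alone (1.87 ± 0.16).

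Among ligands and cytokines, AREG and EREG, which code for ligands of the EGF receptor, fell in AsPC-1 (-1.14 ± 0.17 and -1.79 ± 0.33). There 4 of 16 genes of the list rose and 4 fell, beside 9.46% and 9.02% of all genes tested. In PANC-1 the stress cytokine gene GDF15 had 17.2 to 37.9 CPM against 73.5 to 341 CPM alone (-2.02 ± 0.25), and CSF1, the macrophage growth factor, had 67.95 to 83.2 CPM against 21.3 to 49.8 CPM (1.06 ± 0.12). CSF1 was called higher in AsPC-1 as well (1.43, adjusted p = 0.00349). Receptor tyrosine kinase genes fell in AsPC-1 for 5 of 17, with EGFR at -1.09 ± 0.16 and FGFR1 at -1.34 ± 0.19, and 1 rose. Of all genes tested there 9.02% fell and 9.46% rose. In PANC-1 none of the 17 was called by edgeR, where 2.27% of all genes rose and 2.97% fell. The ephrin receptor gene EPHA2, called lower in both lines, was counted with the ERK output genes and not among the 17.

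**Figure D2:**
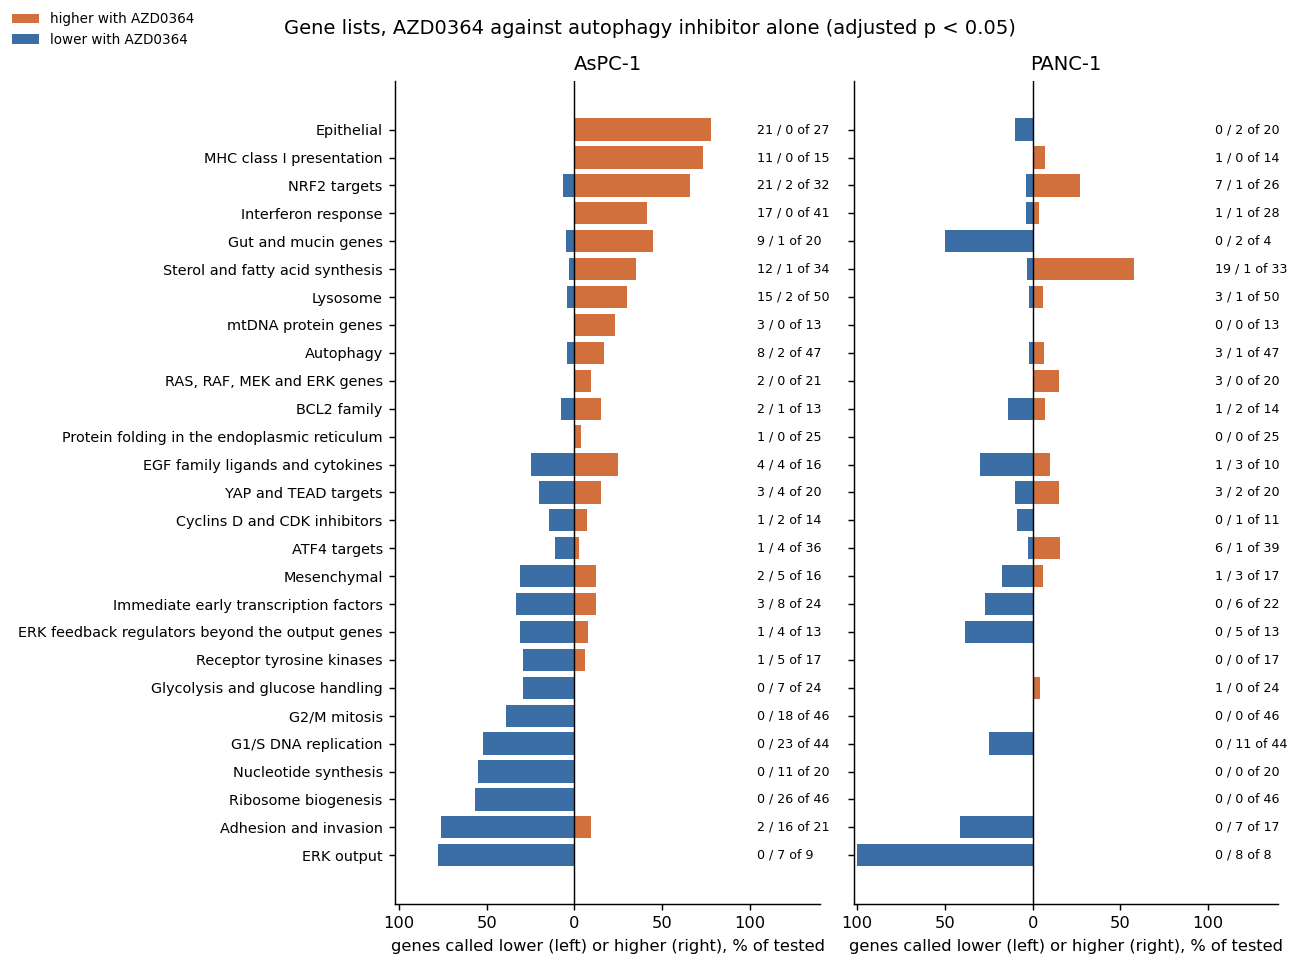
For each gene list and line, bars give the share of tested genes called lower (blue, left) and higher (orange, right) with AZD0364 against the autophagy inhibitor alone at an adjusted p under 0.05, and the numbers give higher / lower of tested. In the ERK output list 7 of 9 genes fell in AsPC-1 and 8 of 8 in PANC-1. Of the epithelial genes 21 of 27 rose in AsPC-1 and 0 of 20 in PANC-1. In AsPC-1 26 of 46 ribosome biogenesis and 18 of 46 G2/M genes fell, with 0 calls of 46 each in PANC-1. Of all genes tested 9.46% rose and 9.02% fell in AsPC-1, and 2.27% rose and 2.97% fell in PANC-1.

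Genes of proliferation fell in AsPC-1. Of the G1/S replication genes 23 of 44 fell and none rose (median -0.86), and of the G2/M genes 18 of 46 fell and none rose (median -0.42), while 9.02% of all genes tested fell. In the comparison with hydroxychloroquine 2 of the 46 G2/M genes fell and 2 rose, near the 3.91% and 4.84% of all genes tested. In that with the Vps34 inhibitor 20 fell, beside 5.6% of all genes. Counts of calls do not test the difference between the autophagy inhibitors, and the direct test is given below. RRM2, the small subunit of ribonucleotide reductase, had 37.3, 24.8, 30.01 and 33.8 CPM with AZD0364 against 62.9 to 130.6 CPM alone (-1.48 ± 0.15). PCNA, the sliding clamp of replication, fell by 0.97 on the log2 scale (SE 0.10), and CDK1, the mitotic kinase, fell by 0.68 (SE 0.12) with groups that overlapped. The CDK inhibitor gene CDKN1A fell in AsPC-1 as well (-1.34 ± 0.19) and was also called lower in PANC-1 (-0.71). In PANC-1 11 of 44 G1/S genes fell (median -0.33), where 2.97% of all genes fell, among them PCNA (-0.61 ± 0.10) and the helicase subunit gene MCM3 (-0.61 ± 0.11). Without plate in the fit PCNA was not called in PANC-1 (-0.60, adjusted p = 0.16). None of 46 G2/M genes was called in PANC-1, and their median was -0.03, the same as that of all genes.

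Growth genes also fell in AsPC-1, and the direct test between the lines is given below. Of 46 ribosome biogenesis genes, 26 fell in AsPC-1 (median -0.62), where 9.02% of all genes tested fell. None of these was called in PANC-1 (median -0.02), where 2.27% of all genes rose and 2.97% fell. NOP56, a core protein of small nucleolar ribonucleoproteins, had 161 to 183.4 CPM with AZD0364 against 270.4 to 400.4 CPM alone in AsPC-1 (-1.0 ± 0.10), and DDX21, a nucleolar helicase, fell by 0.99 (SE 0.12). Of 20 nucleotide synthesis genes 11 fell in AsPC-1, with NME1 at -0.89 ± 0.12 and CTPS1 at -1.36 ± 0.24, and none was called in PANC-1. Of 24 glycolysis genes 7 fell in AsPC-1, including LDHA, lactate dehydrogenase A (-0.60 ± 0.08), and 1 rose in PANC-1. That gene was PDK1, which rested on 1 Vps34 inhibitor library of plate A at 112.7 CPM, and without it the difference was 0.07 (adjusted p = 0.972).

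Survival genes gave 1 fall shared by the lines. MCL1, a short-lived anti-apoptotic member of the BCL2 family, had 5.37 to 15.1 CPM with AZD0364 against 18.6 to 51.2 CPM alone in AsPC-1 (-1.51 ± 0.28) and 6.86 to 11.7 CPM against 16.5 to 29.96 CPM in PANC-1 (-1.17 ± 0.20). In PANC-1 the within-plate values of MCL1 were -1.23 and -1.07, with adjusted p of 0.0553 and 0.0687. The pro-apoptotic gene BAD was called higher by 0.53 in both lines (SE 0.14 and 0.12). It lost the call without the AsPC-1 Vps34 inhibitor library of plate A (0.39, adjusted p = 0.0928). In PANC-1 it lost the call without the hydroxychloroquine library of plate B (0.41, adjusted p = 0.132) and without the Vps34 inhibitor library of plate A (0.42, adjusted p = 0.113).

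More lysosomal genes rose than fell in AsPC-1. Of 50 lysosomal genes 15 rose and 2 fell there (median 0.31), where 9.46% of all genes tested rose and 9.02% fell. In PANC-1 3 of 50 rose and 1 fell (median 0.11), beside 2.27% and 2.97% of all genes. The test between the lines passed for 8 of the 50, with 7 lower and 1 higher in PANC-1, beside 3.12% and 3.40% of all genes. In AsPC-1 CTSD, the aspartic protease cathepsin D, had 56.1 and 45.2 CPM with AZD0364 and hydroxychloroquine. With AZD0364 and the Vps34 inhibitor it had 38.9 and 28.2 CPM. All lay above the alone range of 6.74 to 21.4 CPM (1.48 ± 0.18). CTSL, the cysteine protease cathepsin L, moved the other way in AsPC-1, with 19.6 to 37.3 CPM against 54.7 to 94.6 CPM (-1.20 ± 0.16). Of 47 autophagy genes 8 rose and 2 fell in AsPC-1 (median 0.17), and 3 rose and 1 fell in PANC-1 (median 0.06). In AsPC-1 SQSTM1, the cargo receptor p62, rose by 1.02 (SE 0.10) and ATG12, a ubiquitin-like protein of autophagosome growth, fell by 0.88 (SE 0.10). In PANC-1 the lysosomal cholesterol carrier gene NPC2 (0.46 ± 0.09) and the sialidase gene NEU1 (0.48 ± 0.10) rose. NPC2 was called higher in AsPC-1 as well (0.66). CTSD (0.67) and CTSL (-0.49) were called in PANC-1 in the same directions as in AsPC-1.

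Sterol and fatty acid synthesis genes rose in both lines. In AsPC-1 12 of 34 genes rose and 1 fell (median 0.48), where 9.46% of all genes tested rose and 9.02% fell. In PANC-1 19 of 33 rose and 1 fell (median 0.45), where 2.27% of all genes rose and 2.97% fell. SCD, the stearoyl-CoA desaturase, had 354 to 393.2 CPM with AZD0364 against 111.2 to 261 CPM alone in AsPC-1 (1.06 ± 0.12). In PANC-1 it had 454 to 688.7 CPM against 218 to 427.3 CPM (0.79 ± 0.10). MSMO1, a sterol demethylase, rose by 1.1 in AsPC-1 (SE 0.10) and was also called higher in PANC-1 (0.35). ACAT2, acetyl-CoA acetyltransferase, had 351.1 and 235.4 CPM with hydroxychloroquine and 113.6 and 134 CPM with the Vps34 inhibitor in PANC-1, against 54.5 to 164.7 CPM alone (1.01 ± 0.12). The 2 Vps34 inhibitor libraries lay within the range of all 12 controls. ACAT2 was called higher in AsPC-1 as well (0.80).

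ATF4 targets, the amino acid and stress genes, were called in both directions. In AsPC-1 1 of 36 rose and 4 fell (median 0), beside 9.46% and 9.02% of all genes, with the cystine transporter gene SLC7A11 at 11.3 to 19.6 CPM against 46.6 to 93.5 CPM alone (-1.91 ± 0.25). In PANC-1 6 of 39 rose and 1 fell (median 0.20), beside 2.27% and 2.97% of all genes. The leucine transporter gene SLC7A5 rose there by 1.01 (SE 0.14), and the glutamine transporter gene SLC38A2 fell in PANC-1 (-0.89 ± 0.14) and in AsPC-1 (-0.56 ± 0.11).

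NRF2 targets, which carry out detoxification, rose in AsPC-1 for 21 of 32 genes and fell for 2 (median 0.69). Of all genes tested there 9.46% rose and 9.02% fell. AKR1C2, an aldo-keto reductase, had 4558 and 3578 CPM with hydroxychloroquine and 4632 and 5976 CPM with the Vps34 inhibitor, against 548.6, 876.3 and 1555 CPM for the lowest, median and highest control (2.45 ± 0.07, adjusted p = 7.74e-36). All 4 lay above the highest control. AKR1C3 rose by 2.15 (SE 0.09). The AKR1C genes are close paralogs whose reads the counting may have split, so the value of each is less certain than that of the family. In PANC-1 7 of 26 rose and 1 fell, where 2.27% of all genes tested rose and 2.97% fell. There HMOX1, haem oxygenase, had 48.5 to 106 CPM against 12.5 to 63.3 CPM (1.33 ± 0.20), and ABCC3, an efflux pump gene, was lower (-1.23 ± 0.16). HMOX1 (2.91) and ABCC3 (-0.46) were called in the same directions in AsPC-1. With hydroxychloroquine in AsPC-1, 1 library held more than 5 times as much HMOX1 as the next.

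Interferon and antigen presentation genes rose in AsPC-1, for 17 of 41 interferon response genes and 11 of 15 MHC class I genes, and none fell, where 9.46% of all genes rose. The interferon list summed to 1509 to 1876 CPM with AZD0364 and 1009 to 1299 CPM in 11 of the 12 alone libraries. The other one, a library of the Vps34 inhibitor alone on plate A, summed to 2958 CPM, of which the gene IFI6 gave 1889 CPM, against 2.37 to 14.6 CPM of IFI6 in the other alone libraries. GBP1, a guanylate-binding protein induced by interferon, had 12.5, 17.8, 15.2 and 8.86 CPM with AZD0364, while no control exceeded 1.73 CPM (3.87 ± 0.39). B2M, the light chain of MHC class I, rose by 0.68 (SE 0.10), with 3 of 4 libraries above the highest control of 685.1 CPM. HLA-C rose by 0.93 (SE 0.12). HLA genes share sequence, and their counts may be divided among them. In PANC-1 1 of 28 interferon response genes rose, 1 fell, and 1 of 14 MHC class I genes rose. Of all genes tested there 2.27% rose and 2.97% fell.

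Epithelial genes rose in AsPC-1 for 21 of 27 tested (median 1.24), where 9.46% of all genes tested rose and 9.02% fell. All 4 AZD0364 libraries lay above all 12 controls for 15 of the 27, where 3.51% of all genes tested did so. AGR2, a protein disulfide isomerase of secretory epithelium, had 71.6 and 87.3 CPM with hydroxychloroquine and 155.1 and 178.5 CPM with the Vps34 inhibitor, against 4.03, 9.58 and 15.1 CPM for the lowest, median and highest control. It had the largest rise among the abundant genes that the naming rule covers (3.58 ± 0.17, adjusted p = 3.26e-24). ELF3, an epithelial ETS factor, had 267.9 to 292.5 CPM against 40.98 to 75.9 CPM (2.19 ± 0.10). MUC13, a membrane mucin, had 405.6 to 605.4 CPM against 72.2 to 108.4 CPM (2.45 ± 0.10), and VIL1, the microvillus protein villin, rose by 1.69 (SE 0.11), among 9 of 20 gut and mucin genes that rose and 1 that fell. CDH1, which codes for E-cadherin, rose by 1.5 (SE 0.16).

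The summed carcinoma epithelium markers held 5164 to 6830 CPM with AZD0364 and 2900 to 4017 CPM alone in AsPC-1, with 5 of 6 tested markers higher. The 8 fibroblast markers summed to 151.6 to 226.1 CPM against 44.3 to 84.6 CPM, and of these LUM made up most, with 146.9 to 224.2 CPM, while COL3A1, PDGFRB, POSTN and FAP were at 0 in all 4 libraries. Leukocyte markers summed to 4.78 to 8.86 CPM against 2.89 to 12.2 CPM. In PANC-1 2 of 20 epithelial genes fell and none rose, where 2.97% of all genes tested fell and 2.27% rose. The PANC-1 carcinoma markers summed to 442.6 to 533.3 CPM against 567.7 to 760.0 CPM, and the fibroblast markers to 70.7 to 100.7 CPM against 36.4 to 65.7 CPM. There DCN, LUM, POSTN and FAP were at 0 in all 4 libraries. The part of these levels in the epithelial results was not tested.

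VIM, the mesenchymal filament vimentin, fell in AsPC-1 from 2661 to 3434 CPM alone to 951.1 to 1354 CPM (-1.38 ± 0.07, adjusted p = 3.92e-23), among 5 of 16 mesenchymal genes that fell and 2 that rose. Of 21 adhesion and invasion genes 16 fell and 2 rose in AsPC-1 (median -0.84), with HMGA1, a chromatin protein of invasive tumours, at 99.9 to 196.1 CPM against 402.5 to 766.9 CPM (-2.0 ± 0.15). Of all genes tested 9.46% rose and 9.02% fell in AsPC-1, and 2.27% rose and 2.97% fell in PANC-1. In PANC-1 7 of 17 adhesion and invasion genes fell and none rose. ITGA2, the collagen receptor integrin alpha 2, had 4.52 to 8.42 CPM there against 26.1 to 50.9 CPM (-2.29 ± 0.24), and HMGA1 fell by 0.98 (SE 0.13). NT5E, the ectonucleotidase CD73, fell in both lines (-1.58 ± 0.14 in AsPC-1 and -1.93 ± 0.16 in PANC-1). VIM was also called lower in PANC-1 (-0.48), and ITGA2 in AsPC-1 (-1.79).

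The largest falls among abundant, fully separated genes in AsPC-1 were KIAA0040 (-3.48 ± 0.21), SPRY4, FOSL1, FERMT1, a kindlin that activates integrins (-3.03 ± 0.15), and DUSP6. The largest rises beside AGR2 were the long noncoding RNA LINC01133 (3.41 ± 0.15), the placental phosphatase gene ALPP (3.22 ± 0.20), the retinal dehydrogenase gene ALDH1A1 (2.90 ± 0.16) and the sphingosine-1-phosphate exporter gene SPNS2 (2.66 ± 0.17). Under the same limits, an average log2 CPM of at least 5 and no overlap with the controls, the 5 largest PANC-1 rises ran from 1.19 to 1.58. ID2 and ID1, which code for inhibitors of helix-loop-helix factors, rose by 1.58 (SE 0.22) and 1.2 (SE 0.15), and ID1 had 456.6 to 631 CPM against 152.8 to 285.5 CPM. MAP2, a microtubule protein of neurons, had 65.2 to 103.4 CPM against 24.7 to 38.7 CPM (1.47 ± 0.10), and MXD4 and AP1M2 rose by 1.27 (SE 0.20) and 1.19 (SE 0.14). The largest PANC-1 falls under these limits were GDF15, TMEM158 (-1.95 ± 0.16), NT5E, NKX6-2 (-1.88 ± 0.13) and PITPNC1 (-1.61 ± 0.15). In AsPC-1 ID2 (0.73), MAP2 (2.28), MXD4 (1.45), TMEM158 (-2.4) and PITPNC1 (-1.20) were called in the same direction, and ID1 in the other (-0.93).

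The difference between the lines was tested directly. The AZD0364 difference was not the same in the 2 lines for 911 of 13960 genes, 6.53%, with 475 higher in PANC-1 (3.40%) and 436 lower (3.12%). No ERK output gene was among them, with 10 tested and a median difference of 0.12, so a difference between the lines in this list was not detected at this depth. KRT18, keratin 18 of simple epithelium, differed most by p, with 2301 to 3512 CPM in AsPC-1 against 1063 to 1902 CPM alone, and 240.8 to 334.5 CPM in PANC-1 against 412.3 to 578.3 CPM alone. It rose by 0.91 (SE 0.06) in AsPC-1 and fell by 0.79 (SE 0.08) in PANC-1, with an interaction of -1.70 ± 0.09 (adjusted p = 1.57e-27). The annotated KRT18 gene overlaps KRT8 on the other strand, and the strand setting of the counting is not given in the sources used here.

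AGR2 (-3.95 ± 0.23), TM4SF1, a tetraspanin-like surface protein (-1.88 ± 0.12), SPNS2 (-4.26 ± 0.29) and LRP10, a lipoprotein receptor relative (-1.19 ± 0.12), also differed in the direction of a lower value in PANC-1. TM4SF1 had 357.6 to 469.4 CPM in AsPC-1, above its controls at 259.2 to 351.7 CPM, and 236.6 to 289.6 CPM in PANC-1, far below its controls at 648.7 to 793.4 CPM. In the other direction stood FOSL1, DRAP1, a repressor of transcription (1.17 ± 0.10), DCBLD2, a surface receptor (1.76 ± 0.16), MPV17L (1.42 ± 0.14) and RRM2 (1.71 ± 0.17). RRM2 fell in AsPC-1 and held 175.5 to 226.6 CPM in PANC-1 against 134.7 to 202.1 CPM alone. By list, 11 of 27 epithelial, 8 of 15 MHC class I and 8 of 41 interferon genes had a lower AZD0364 difference in PANC-1, and 16 of 46 ribosome biogenesis, 10 of 46 G2/M and 8 of 20 nucleotide synthesis genes a higher one. In all 3 of the latter lists no gene went the other way. Of all genes tested 3.12% had a lower difference in PANC-1 and 3.40% a higher one.

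Over the 11526 genes tested in both lines, AsPC-1 had 2039 calls, PANC-1 had 595, and 289 were shared, which is 14.2% of the AsPC-1 calls and 48.6% of the PANC-1 calls. Of the 289, 97 were higher in both, 154 lower in both and 38 in opposite directions. By the codes in the titles each line had plates of its own, and concentrations are not in the labels, so line, plate and dose cannot be told apart.

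**Figure D3:**
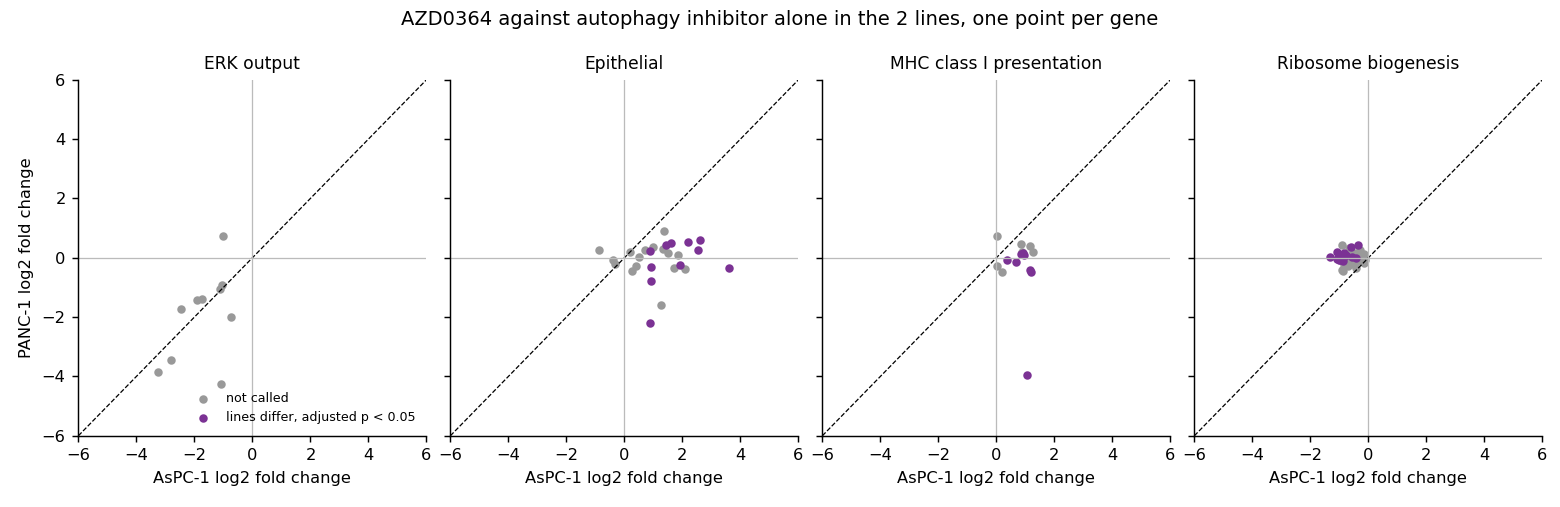
Each point is 1 gene, with its AZD0364 log2 fold change in AsPC-1 on the horizontal axis and in PANC-1 on the vertical axis, for 4 gene lists; the dashed line marks equal changes and purple points passed the test of a difference between the lines. Of the 10 ERK output genes none is purple, while 11 of 27 epithelial genes are, all below the dashed line.

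AZD0364 was compared with alone under each autophagy inhibitor. With hydroxychloroquine 1117 genes were called in AsPC-1 (8.75%; 4.84% higher and 3.91% lower) and with the Vps34 inhibitor 1465 (11.5%; 5.88% higher and 5.60% lower). Without 1 library the first count became 675 (plate A left out) or 573 (plate B left out), and the second 831 or 694. Both lists shared 701 genes, 62.8% of the first and 47.8% of the second, of which 388 rose in both, 312 fell in both and 1 moved in opposite directions. In PANC-1 the counts were 229 (1.81%; 0.768% higher and 1.05% lower) and 259 (2.05%; 0.871% higher and 1.18% lower), with 121 genes in both, 52.8% and 46.7%, and none in opposite directions. These counts fell to 94 or 80 without a hydroxychloroquine library (plate A or B) and to 82 or 99 without a Vps34 inhibitor library.

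A direct test of the difference between the autophagy inhibitors passed for 10 genes in AsPC-1 (0.0784%; 0.0392% in each direction) and 5 in PANC-1 (0.0396%; 0.0158% higher with the Vps34 inhibitor and 0.0238% lower). The AsPC-1 count was 28 without the hydroxychloroquine library of plate A, 5 without that of plate B and 3 without the Vps34 inhibitor library of plate B, and the PANC-1 count 0 without the hydroxychloroquine library of plate B (edgeR) and 2 without the Vps34 inhibitor library of plate A. None was an ERK output gene. TYMS, thymidylate synthase of DNA precursor synthesis, had 212.6 and 201.6 CPM with AZD0364 and hydroxychloroquine, above the 129.6 to 178.6 CPM of hydroxychloroquine alone. With AZD0364 and the Vps34 inhibitor it had 71.1 and 63.1 CPM, below the 108.6 to 242.2 CPM of that inhibitor alone. The interaction was -1.85 ± 0.34 (adjusted p = 0.0113), and -1.7 (adjusted p = 0.225) without the Vps34 inhibitor library of plate B. TYMS overlaps ENOSF1 and TYMSOS on the other strand, whose reads cannot be told apart without strand.

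NUSAP1, a spindle protein, went the same way, with 96.4 and 114.7 CPM against 59.5 to 92.7 CPM alone with hydroxychloroquine, and 55.0 and 50.4 CPM against 77.0 to 99.3 CPM with the Vps34 inhibitor (-1.27 ± 0.25). KPNB1, the nuclear import receptor importin beta, had 280.0 and 383.2 CPM with hydroxychloroquine and 161.1 and 145.3 CPM with the Vps34 inhibitor, while its controls stayed between 173.3 and 229.8 CPM (-1.01 ± 0.20). Neither call held in every fit without 1 library: NUSAP1 had an adjusted p of 0.0987 without the hydroxychloroquine library of plate B and 0.307 without the Vps34 inhibitor library of plate B, and KPNB1 0.654 and 0.242. KPNB1 also missed the threshold without the Vps34 inhibitor library of plate A (adjusted p = 0.0524). KRT18 rose more with the Vps34 inhibitor, to 2970 and 3512 CPM from 1063 to 1455 CPM, than with hydroxychloroquine, to 2301 and 2548 CPM from 1485 to 1902 CPM (0.79 ± 0.13, adjusted p = 0.00149). It kept its call in each fit without 1 of the 4 AZD0364 libraries and lost it without plate as a term (adjusted p = 0.161). For the G2/M list in AsPC-1 the test of the difference between autophagy inhibitors passed for 1 of 46 genes, with a list median of -0.61 beside -0.02 for all genes.

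**Figure D4:**
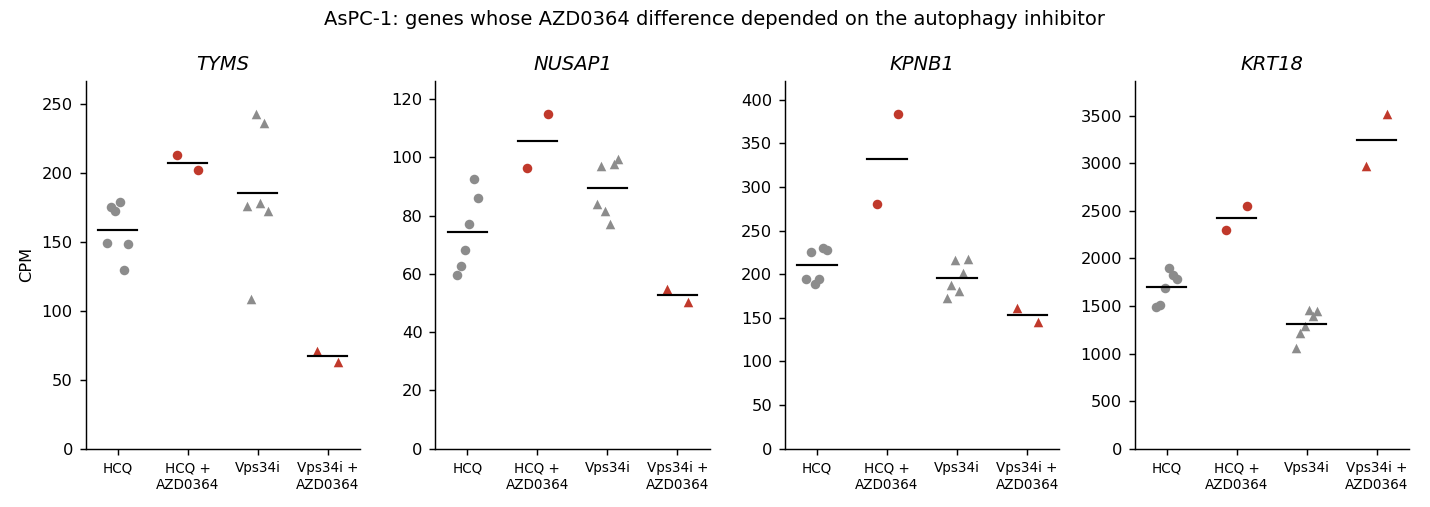
CPM per library in AsPC-1 for TYMS, NUSAP1, KPNB1 and KRT18 under hydroxychloroquine (HCQ, circles) and the Vps34 inhibitor (Vps34i, triangles), alone in grey and with AZD0364 in red; bars are group means. TYMS, NUSAP1 and KPNB1 lie above their controls with hydroxychloroquine and below them with the Vps34 inhibitor, and KRT18 lies above its controls in both.

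Several of these calls rested on 1 library. FGF8 had 9232 CPM in the AsPC-1 Vps34 inhibitor library of plate B and 2.61 to 5.95 CPM in the other 3 AZD0364 libraries. PRDM1 and RAB12 in AsPC-1, and MAST4, LONP2, APBB2 and NOL4L in PANC-1, were likewise called with 1 library more than 5 times as high as the next. Such genes made up 16 of the 2358 calls against alone in AsPC-1 and 7 of 662 in PANC-1, but 3 of 10 and 4 of 5 of the calls between the autophagy inhibitors. Against other ERK inhibitors they made up 10 of 28 calls (SCH772984), 2 of 19 (ulixertinib) and 7 of 49 (ravoxertinib) in AsPC-1, and 4 of 31, 4 of 291 and 9 of 32 in PANC-1. Against the mean of the other 3 inhibitors they were 3 of 5 and 7 of 38.

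AZD0364 was then set against each of the other 3 ERK inhibitors, over 6 pairs of drug and line, with p adjusted over all genes of the 6 pairs together. In AsPC-1 the calls were 28 against SCH772984 (0.219%; 0.094% higher with AZD0364 and 0.125% lower), 19 against ulixertinib (0.149%; 0.141% and 0.00784%) and 49 against ravoxertinib (0.384%; 0.259% and 0.125%). In PANC-1 they were 31 (0.246%; 0.111% and 0.135%), 291 (2.30%; 1.66% and 0.641%) and 32 (0.253%; 0.0713% and 0.182%). Single AZD0364 libraries moved most of these counts. Without the hydroxychloroquine library of plate A the AsPC-1 count against ulixertinib was 32, and the PANC-1 counts against SCH772984 and ravoxertinib were 19 and 19. Without that of plate B the AsPC-1 counts against SCH772984 and ravoxertinib were 11 and 32, and the same PANC-1 counts were 12 and 10. Without the Vps34 inhibitor library of plate A the PANC-1 counts were 17 and 18. Without that of plate B the AsPC-1 counts were 8, 11 and 22 in the order above, and the PANC-1 count against ravoxertinib was 20.

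Against the mean of the other 3 inhibitors, 5 genes were called in AsPC-1 (0.0392%), namely RAB12, KPNB1, SYT14, FGF8 and PTGR2, all higher, and 38 in PANC-1 (0.301%; 0.238% higher and 0.0634% lower). RAB12, SYT14 and FGF8 were high in 1 library. KPNB1 (0.57 ± 0.10) and PTGR2 (2.14 ± 0.43) lost their calls without the hydroxychloroquine library of plate B (adjusted p = 0.331 and 0.986). The AsPC-1 count was 14, 3 and 20 without the AZD0364 hydroxychloroquine library of plate A, that of plate B and the Vps34 inhibitor library of plate A, and 11 and 8 without the plate A libraries of ravoxertinib with the Vps34 inhibitor and of ulixertinib with hydroxychloroquine. The PANC-1 count was 24, 8, 19 and 17 without each AZD0364 library in turn. In PANC-1 RRM2 (0.69 ± 0.09) and NEK2 (0.63 ± 0.10) were among the higher genes and MKNK2 (-0.51 ± 0.08) and ADM2 (-1.21 ± 0.21) among the lower.

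None of the 9 ERK output genes was called between AZD0364 and any of the other 3 inhibitors in AsPC-1. The summed level of the list was 186 to 328.1 CPM with AZD0364, 175.7 to 419.3 CPM with SCH772984, 202.4 to 266.4 CPM with ulixertinib and 181.4 to 320.7 CPM with ravoxertinib, while the alone libraries held 680.4 to 1018 CPM. In each pair the 95% interval of the difference lay between -1 and 1 on the log2 scale for 6 of the 9 genes. The widest intervals reached from -1.92 against ravoxertinib to 2.91 against ulixertinib, so differences of that size in single genes lie within these intervals.

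In PANC-1 the list summed to 229.5 to 288.1 CPM with AZD0364, 166 to 235.8 CPM with SCH772984, 176.1 to 252.5 CPM with ulixertinib and 260.7 to 367.1 CPM with ravoxertinib, against 510 to 738.3 CPM alone. SPRY4 was the single member called in a pair. It was lower with AZD0364 than with ravoxertinib, where it had 2.68 and 7.77 CPM with hydroxychloroquine and 10.7 and 14.2 CPM with the Vps34 inhibitor (-1.44 ± 0.29, interval -2.03 to -0.85, adjusted p = 0.00552). PHLDA1 against SCH772984 was 0.42 (interval 0.19 to 0.66, adjusted p = 0.0792) and ETV5 against ravoxertinib -0.91 (interval -1.42 to -0.41, adjusted p = 0.0868), neither of which passed. The low counts of ETV4 left an interval of -4.94 to -0.02 against ulixertinib. FOSL1, not a member of that list, was lower with AZD0364 than with ravoxertinib, at 196.8 to 227.1 CPM against 322.9 to 420.0 CPM (-0.79 ± 0.12, adjusted p = 1.85e-05).

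Of the 6 pairs, AZD0364 and ulixertinib in PANC-1 gave the most calls. Of 46 G2/M genes 38 were higher with AZD0364 and none lower (median 1.22), where 1.66% of all genes tested were higher, and 8 of 44 G1/S genes were higher (median 0.46). RRM2 had 226.6, 195.0, 175.5 and 194.1 CPM with AZD0364 and 39.2 to 66.1 CPM with ulixertinib (1.99 ± 0.12, adjusted p = 7.31e-16). CCNB1, the mitotic cyclin B1, had 202.1 to 227.6 CPM against 54.2 to 142.7 CPM (1.30 ± 0.11), and NEK2, a centrosome kinase, 103.1 to 130.3 CPM against 15.1 to 57.4 CPM (1.84 ± 0.13). SPC25, a kinetochore protein (1.46 ± 0.12), and NCAPG, a condensin subunit (1.67 ± 0.14), complete the 5 with the smallest p. The G2/M list summed to 4041 to 4525 CPM with AZD0364, 3529 to 4632 CPM alone and 1445 to 2685 CPM with ulixertinib. With SCH772984 it summed to 4072 to 5049 CPM and with ravoxertinib to 4361 to 4621 CPM, so only ulixertinib lay below the controls.

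ATF4 targets were lower with AZD0364 than with ulixertinib in PANC-1, for 15 of 39, with 1 higher (median -0.59). Of all genes tested 0.641% were lower and 1.66% higher. The ATF4 list summed to 2377 to 3657 CPM with AZD0364 and 3904 to 5347 CPM with ulixertinib. With SCH772984 it summed to 2348 to 4378 CPM and with ravoxertinib to 2276 to 3742 CPM, both overlapping AZD0364. CHAC1, a glutathione-degrading enzyme, had 24.0 and 23.2 CPM with AZD0364 and hydroxychloroquine and 54.5 and 54.9 CPM with AZD0364 and the Vps34 inhibitor. Its ulixertinib libraries had 91.0 and 87.9 CPM with hydroxychloroquine and 147 and 126 CPM with the Vps34 inhibitor, higher at each autophagy inhibitor (-1.61 ± 0.18). TRIB3, a pseudokinase induced by stress (-1.87 ± 0.21), ADM2, adrenomedullin 2 (-2.05 ± 0.24), HSPA5, the chaperone BiP (-0.91 ± 0.11), and MKNK2 (-0.90 ± 0.10) were lower too. Of 33 sterol and fatty acid genes 10 were higher with AZD0364. These 10 genes named against ulixertinib kept their direction in each fit that left out 1 AZD0364 library. No ulixertinib library was left out for this pair. The count of 291 fell to 191 without the AZD0364 hydroxychloroquine library of plate B.

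RRM2 also separated AZD0364 from SCH772984 in PANC-1, at 120.8 to 144.6 CPM with the latter (0.57 ± 0.12, adjusted p = 0.00604), and it lost the call without the AZD0364 hydroxychloroquine library of plate A (0.49, adjusted p = 0.083). With ravoxertinib RRM2 had 255.1 to 318.7 CPM, so its order in PANC-1 ran from ulixertinib over SCH772984 and AZD0364 to ravoxertinib with no overlap between neighbours. MKNK2 was lower with AZD0364 than with SCH772984 at each autophagy inhibitor, at 217.8 and 177.1 CPM against 279 and 243.2 CPM with hydroxychloroquine and 366.3 and 312.6 CPM against 556.3 and 512 CPM with the Vps34 inhibitor (-0.53 ± 0.10). The noncoding RNA GAS5, a host of small nucleolar RNAs, was lower as well (-0.96 ± 0.17). Against ravoxertinib PCNA was lower with AZD0364 (-0.87 ± 0.12), as were 5 of 44 G1/S genes (median -0.34), where 0.182% of all genes tested were lower. MRPS10, a mitochondrial ribosomal protein, was higher, at 229.2 to 277.7 CPM against 151.4 to 162.7 CPM (0.71 ± 0.11). PCNA lost this call without plate in the fit (adjusted p = 0.226).

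In AsPC-1 the pair with the most calls was AZD0364 and ravoxertinib. ALPP had 80.9, 109.5, 35.7 and 51.5 CPM with AZD0364 and 7.84 to 28.3 CPM with ravoxertinib (1.71 ± 0.26, adjusted p = 2.13e-05). IGFBP3, which binds insulin-like growth factors, had 236.0 to 290.9 CPM against 100.5 to 152.1 CPM (1.03 ± 0.16), and GPA33, an intestinal surface antigen, 89.8 to 188.8 CPM against 43.8 to 77.2 CPM (1.25 ± 0.21). All AZD0364 libraries exceeded all ravoxertinib libraries for these 3 genes. PLAC8 (0.57 ± 0.09) and the retinal dehydrogenase gene ALDH1A3 (0.63 ± 0.11) were higher, and ID1 lower (-0.82 ± 0.18). ID1 lost its call without the hydroxychloroquine library of plate A (adjusted p = 0.069) and without the Vps34 inhibitor library of plate A (adjusted p = 0.0892). Against ulixertinib in AsPC-1, 4 of 44 G1/S genes were higher with AZD0364 (median 0.47), where 0.141% of all genes tested were higher. Among the 4 were GINS2 (1.03 ± 0.23) and MCM3 (0.90 ± 0.20). NUSAP1 (0.75 ± 0.15) and RMI2 (1.91 ± 0.40) were higher too. GINS2 had an adjusted p of 0.0714 without the Vps34 inhibitor library of plate A, and MCM3 0.0551 without the hydroxychloroquine library of plate A and 0.189 without the Vps34 inhibitor library of plate B.

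**Figure D5:**
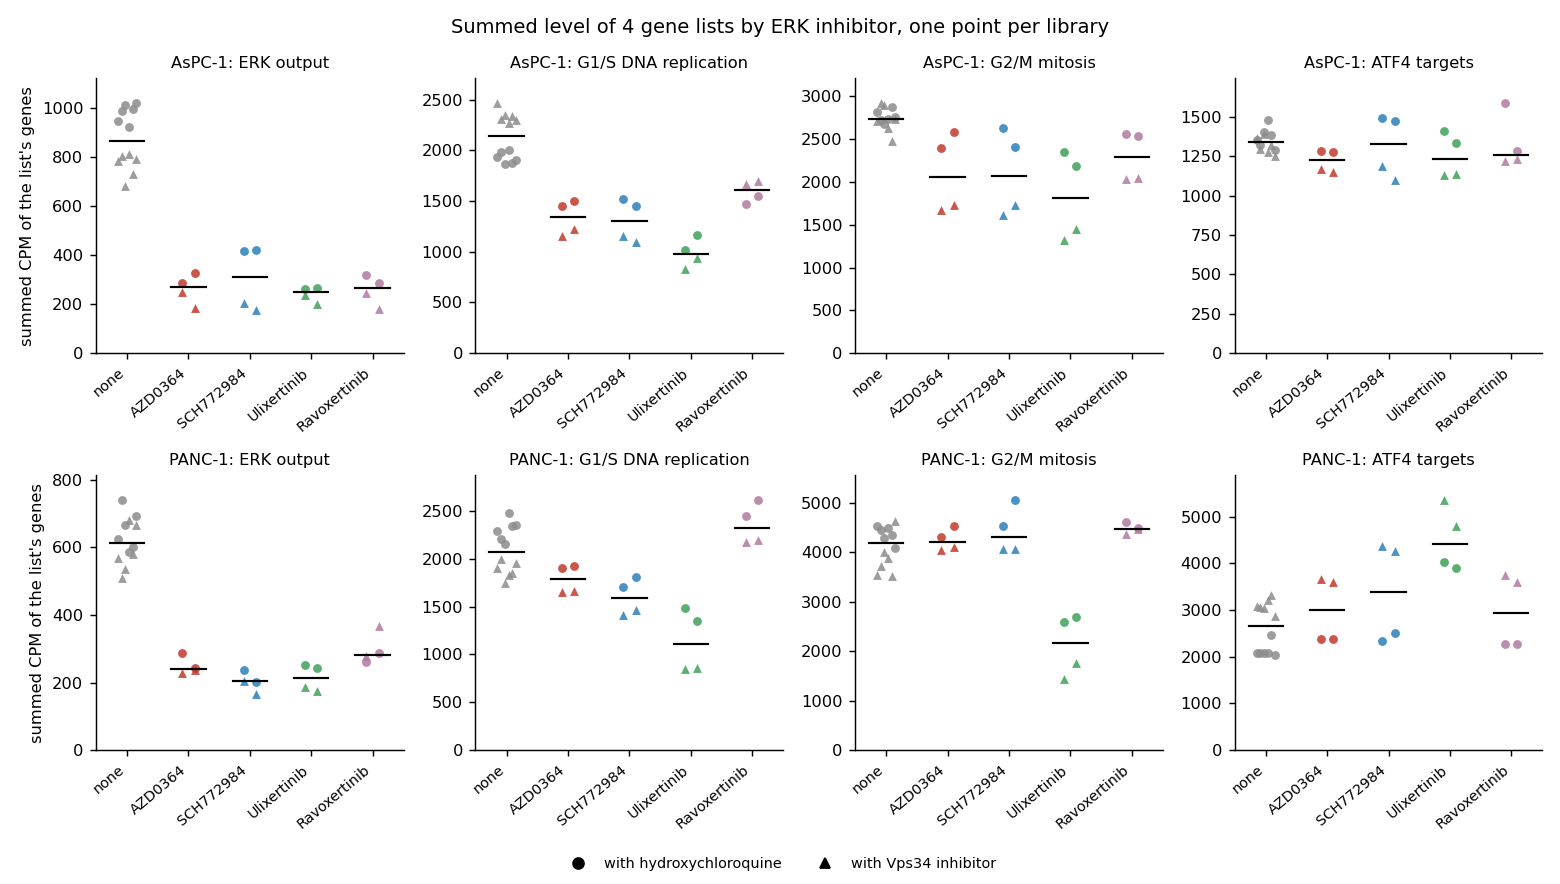
Summed CPM of 4 gene lists per library in AsPC-1 (top) and PANC-1 (bottom), for the autophagy inhibitors alone (none) and with each ERK inhibitor; circles are hydroxychloroquine, triangles the Vps34 inhibitor, and bars medians. The ERK output sums overlap between the drugs in AsPC-1, while the PANC-1 G2/M sum is 4041 to 4525 CPM with AZD0364 and 1445 to 2685 CPM with ulixertinib. With SCH772984 and ravoxertinib it is 4072 to 5049 CPM and 4361 to 4621 CPM.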

How the data were processed

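The starting values were gene counts per library, whole numbers that the authors deposited without normalization. Per the submitters' processing notes kallisto 0.44.0 and GRCh38 were used, with roles, annotation and strand setting not given in the sources used here. Of 25435 gene symbols 4605 had no count. Line and treatment were read from the titles, per the labels, and plate from the letter A or B in the code that opens each title, which does not itself say plate.

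Each line was fitted once over 68 libraries with edgeR 4.0.16 in R 4.3.3 (quasi-likelihood, robust, TMM, filterByExpr by treatment group, 30 groups and plate, 37 residual degrees of freedom), two-sided, adjusted by Benjamini and Hochberg. The 2 autophagy inhibitors weighed equally. The libraries of both lines in 1 fit gave the difference between the lines. The 6 pairs of ERK inhibitors were adjusted together. Library measures were compared by exact permutation. The fits were tested on simulated data. Libraries sharing a plate number deviated together only in part (correlations -0.11 to 0.186); plate stayed a term because the title codes separate A from B.

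The genes, lists and tests were chosen with earlier results of these data known. Named against alone were the tested ERK output genes, the 2 called genes with the smallest adjusted p of each other list, and the 5 largest rises and 5 largest falls whose average log2 CPM reached 5 without overlap with the controls. For other comparisons it was the 5 calls of lowest adjusted p in either direction. Genes named beyond that rule were chosen after their values were seen. Each pair shares the AZD0364 libraries, and each line's comparisons against alone share the controls. DESeq2 1.42.0, other filters and scaling, and leaving out libraries were the alternatives. When a library was left out, the trend of the full fit was kept, and a group left with 1 library was assumed to vary like the others. Alone libraries were left out only for AZD0364 against alone over both autophagy inhibitors. Libraries of the other ERK inhibitors were left out only against their mean. In all other comparisons, including the pairs, only AZD0364 libraries were left out. The depth limits low genes: 1 count is under 1 CPM in every AZD0364 library.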

Additional observations from a re-analysis of the deposited data

Results flagged for a closer look

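The AZD0364 difference depended on the autophagy inhibitor, by the test of the interaction, for 15 genes. In AsPC-1 the Vps34 inhibitor minus hydroxychloroquine differences on the log2 scale were 0.79 for KRT18, 8.66 for FGF8, 0.94 for PON2, 1.03 for SLC25A3, 2.61 for EXTL2, -1.85 for TYMS, -1.27 for NUSAP1, -1.01 for KPNB1, -8.43 for PRDM1 and -4.33 for RAB12. In PANC-1 they were 4.54 for MAST4, 4.11 for LONP2, -5.05 for APBB2, -2.0 for OAZ2 and -6.97 for NOL4L. PRDM1 reached 272.9 CPM and RAB12 2041 CPM in the AsPC-1 hydroxychloroquine library of plate B, and without it their differences were -0.71 and -0.49. MAST4 reached 1170 CPM in the PANC-1 Vps34 inhibitor library of plate A, LONP2 1015 CPM in that of plate B, and NOL4L 1906 CPM and APBB2 879.6 CPM in the hydroxychloroquine library of plate B. Without those libraries the differences were 0.02, 0.26, -0.86 and -0.18.

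The 10 genes named for a difference between the lines also passed the test of that interaction, with PANC-1 minus AsPC-1 values of 2.03 for FOSL1, 1.17 for DRAP1, 1.76 for DCBLD2, 1.42 for MPV17L, 1.71 for RRM2, -1.70 for KRT18, -3.95 for AGR2, -1.88 for TM4SF1, -4.26 for SPNS2 and -1.19 for LRP10. Among the 6 alone libraries of each autophagy inhibitor, Dixon's test for a single far value passed in none of 50 tests, over the ERK output genes and 4 library measures. AZD0364 groups of 2 libraries, and other genes, were not tested.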

How the results depend on the processing

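Against alone, the count of called genes stayed within 1.5 times under DESeq2, no filter on low counts, upper-quartile scaling and no replicate block (plate left out): without the block AsPC-1 had 2136, PANC-1 546, and 729 were found for the difference between the lines. Leaving out single libraries gave 1745 to 2351 in AsPC-1, 394 to 658 in PANC-1 and 654 to 818 for the lines, the last alternative chosen after seeing the data. Within plates A and B the counts were 1396 and 887 in AsPC-1, and 141 and 230 in PANC-1.

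With hydroxychloroquine the ranges without 1 library were 573 to 1111 in AsPC-1 and 80 to 219 in PANC-1, and with the Vps34 inhibitor 694 to 1475 and 82 to 242. Fitted on the compared libraries alone, the PANC-1 counts were 132 and 119. The interaction of autophagy inhibitors counted 30 genes in AsPC-1 by DESeq2, 5 without the block, 2 on the compared libraries alone and 3 to 28 without 1 library. In PANC-1 it counted 8, 2 without a filter, 0 on the compared libraries alone (edgeR) and 0 to 6.

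Against the other 3 ERK inhibitors AsPC-1 gave 19 by DESeq2, 1 on the compared libraries, 0 within plate A, 17 within plate B, and 3 to 20 without 1 library. PANC-1 gave 59, 25 without a filter, 24 without the block, 2 on the compared libraries, 2 and 4 within plates, and 8 to 41. Against SCH772984 AsPC-1 gave 56 by DESeq2, 18 without a filter, 18 without the block, 7 on the compared libraries and 8 to 25, and PANC-1 57 by DESeq2, 18 without the block, 9 and 12 to 22. Against ulixertinib AsPC-1 gave 36 by DESeq2, 9 without the block, 1 and 11 to 32, and PANC-1 108 on the compared libraries and 191 to 213. Against ravoxertinib AsPC-1 gave 82 by DESeq2, 26 without the block, 10 and 22 to 41, and PANC-1 17 without a filter, 21 without the block, 6 and 10 to 20. Fewer libraries leave fewer degrees of freedom; otherwise the cause was not tested.

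In PANC-1 MCL1, NPC2, MKNK2, BAD, EPHA2 and SPRY2 kept their direction within both plates and were called in neither. Values that changed sign without 1 library belonged to genes high in that library. FGF8 ran from -1.73 to 9.88 for the interaction and from -0.30 to 5.51 against the other 3 ERK inhibitors, with the lowest value without the AsPC-1 Vps34 inhibitor library of plate B. MAST4 with the Vps34 inhibitor ran from -0.23, without the PANC-1 library of plate A, to 5.30. With hydroxychloroquine APBB2 ran from -0.03 to 5.87 and NOL4L from -0.11 to 7.03, and APBB2 against the other 3 from -0.03 to 2.92, each lowest without the hydroxychloroquine library of plate B. With labels permuted freely in place of the replicate block, the AsPC-1 mitochondrial difference of 2.38 and the ribosomal difference of -0.913 percentage points did not pass.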
